A study of Mus musculus with 68 samples.

Results

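RNA was compared between ileum tumours of ApcMin mice labelled Cftr knockout and Cftr wildtype, which are 4 of the 23 intestinal specimens of a study of Cftr deficiency in intestinal tumours. The 4 tumours were taken by their specimen labels: tumours 1 and 2 of the knockout animal and tumours 1 and 2 of the wildtype animal, each read in 2 lanes of run 2, which gives 8 of the 68 columns of FPKM values. FPKM divides fragments by transcript length and library size, so levels can be compared between genes. All 4 tumours came from C57BL/6 mice aged 3 months that carried the Min allele of Apc. The labels give 1 animal number for each Cftr genotype, so genotype and animal cannot be told apart. The p-values below measure the spread between specimens of one group, pooled over all groups, and for these tumours that is the spread within 1 animal. The growth protocol describes a floxed Cftr allele with Cre under the Villin promoter, which is active in gut epithelium, but only for Apc wildtype mice. The Cftr allele of the ApcMin knockout animal is not given in the sources used here.

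Cftr is a chloride and bicarbonate channel of the apical membrane of gut epithelium, densest in crypts, and its loss thickens mucus and dries the crypt and villus surface. Apc holds back Wnt signalling by promoting the breakdown of beta-catenin, and mice with the Min allele lose the second Apc copy in single crypts, which then grow into adenomas, most of them in the small intestine. The ileal crypt also holds Paneth cells, which secrete alpha-defensins and lysozyme, and tuft cells, chemosensory cells that release interleukin-25, while the ileal villus takes up bile acids.

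The relative depth of the 8 columns spanned 1.16-fold, and 27.1% to 27.7% of their values were 0. The tumours of one genotype differed by an SD of 0.22 (knockout) and 0.196 (wildtype) on the log2 scale, 3.4 and 2.69 times what the lanes alone gave. Xist, which is made from the inactive X of female cells, was at 43.7 and 37.7 FPKM in the knockout tumours. It was at 40.3 and 33.8 FPKM in the wildtype tumours, so the comparison of these animals is not between the sexes. The sex of the other animals of the series was not tested. The test was limma on log2(FPKM + 1) over 14098 genes with all groups of the series sharing 1 estimate of spread, and Benjamini-Hochberg adjustment at 0.05. Changes are knockout minus wildtype on that log2 scale, which understates changes of low genes. Exact permutation of 2 tumours against 2 cannot go below p = 0.333.

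Cftr RNA was at 40.1 and 31.2 FPKM in the knockout tumours and at 23.4 and 27.3 FPKM in the wildtype tumours. It was thus not lower in the tumours labelled knockout, with a log2 change of 0.47 (SE 0.34, limma adjusted p = 1.00), and a gene-level value cannot show whether single exons were deleted. Apc, the tumour suppressor that both animals carry with the Min allele, was at 16 and 12.8 FPKM in knockout and at 16.5 and 13.5 FPKM in wildtype tumours.

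The ileal origin was checked against ileal markers. Slc10a2, the apical bile acid transporter of the ileum, was at 55.9 and 11.4 FPKM in the knockout tumours and at 115 and 60.7 FPKM in the wildtype tumours. All colon specimens of the series held at most 5.62 FPKM of Slc10a2. Fgf15, the hormone that the ileum releases in response to bile acids, was at 3.73 and 0.702 FPKM in knockout and at 12.8 and 3.58 FPKM in wildtype tumours, against at most 0.0894 FPKM in colon. The summed level of 8 ileal markers, however, was 1418 FPKM in knockout tumour 1 and 345.2 FPKM in knockout tumour 2. It was 10967 and 7734 FPKM in the wildtype tumours, and 1 knockout colon tumour reached 345.3 FPKM. Most of each wildtype sum was 1 gene, Fabp6, whose values are given with the bile acid genes below. Normal duodenum summed to 441.6 to 578.2 FPKM and the duodenal tumours of Apc wildtype knockout mice to 267.6 to 358.7 FPKM. Knockout tumour 2 thus stood above colon by Slc10a2 and Fgf15, but its sum lay within the range of colon and duodenal tumours.

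Of 14098 genes 22 passed the test (0.156%), with 11 higher (0.078%) and 11 lower (0.078%) in the knockout tumours, and 829 had an unadjusted p under 0.05 (5.88%). The tumours of the 2 genotypes did not overlap for 2757 genes higher in knockout (19.6%) and 2962 genes lower (21.0%). The count rested on having both tumours of each genotype: it fell to 4 without knockout tumour 1, 2 without knockout tumour 2, 4 without wildtype tumour 1 and 7 without wildtype tumour 2. Slc15a2 passed in all 4 of those fits. The 11 higher genes were led by 5 alpha-defensins, and 8 of the 11 lie on chromosome 8, which holds 754 of the tested genes. Of the 11 lower genes, Dpep2 was not placed, and none of the others lies on chromosome 8.

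Alpha-defensins are secreted as precursors and cut to short peptides, held by 3 disulphide bonds, that kill bacteria in the crypt lumen. The mouse genes lie in a tandem cluster on chromosome 8 and resemble each other closely. Below, the last 120 bases of the coding sequences of the 5 called genes and of Defa24, which did not pass, are given from GENCODE transcripts (release M21, build GRCm38, plus strand) to show how alike genes with very different values are. Capitals mark the cysteine codons, 6 in each, and each span includes an intron that is left out.
Defa21, chr8:21025750-21026423: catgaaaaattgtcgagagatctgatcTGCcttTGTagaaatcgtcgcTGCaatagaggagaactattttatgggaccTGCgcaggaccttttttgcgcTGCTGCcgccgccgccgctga
Defa22, chr8:21162482-21163155: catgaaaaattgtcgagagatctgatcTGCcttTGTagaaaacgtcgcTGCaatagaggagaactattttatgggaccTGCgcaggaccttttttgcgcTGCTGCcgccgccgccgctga
Defa20, chr8:21509469-21510143: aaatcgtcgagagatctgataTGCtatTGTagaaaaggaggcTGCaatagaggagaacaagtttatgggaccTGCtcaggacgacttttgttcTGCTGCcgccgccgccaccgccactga
Gm21002, chr8:21392024-21392698: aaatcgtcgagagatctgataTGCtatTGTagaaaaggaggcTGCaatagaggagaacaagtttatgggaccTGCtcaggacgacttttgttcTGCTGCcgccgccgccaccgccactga
Defa3, chr8:21287605-21288283: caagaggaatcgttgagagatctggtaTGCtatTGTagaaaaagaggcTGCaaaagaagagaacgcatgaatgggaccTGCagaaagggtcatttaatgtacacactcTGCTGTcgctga
Defa24, chr8:21734699-21735377: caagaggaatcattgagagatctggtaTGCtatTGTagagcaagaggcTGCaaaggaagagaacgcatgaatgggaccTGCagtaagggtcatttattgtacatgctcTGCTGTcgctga

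Over the whole coding sequence Defa21 and Defa22 were 99.3% identical and Defa20 and Gm21002, which RefSeq names Defa33, 99.7% identical. Defa3 was closer to Defa24 (95.7%) than to Defa21 (81.6%). Reads shared by such near-identical copies can be split in several ways, so the values of the single genes are uncertain, while the contrast between the genes of this family is described here as deposited.

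The 5 called alpha-defensins were all present in the knockout tumours and near 0 in the wildtype tumours. Defa21 was at 679 and 285 FPKM in the knockout tumours and at 0.174 and 0.16 FPKM in the wildtype tumours, a log2 change of 8.58 (SE 1.27, limma adjusted p = 0.021). Defa22 was at 797 and 378 FPKM in knockout and at 0.692 and 0.32 FPKM in wildtype tumours (log2 change 8.54, adjusted p = 0.036). Gm21002 had 1505 and 643.4 FPKM in knockout tumours, against 1.17 and 1.54 FPKM in wildtype tumours (log2 change 8.72, adjusted p = 0.036). In each of these genes knockout tumour 1 was above knockout tumour 2, and the genotypes did not overlap. Defa20 was at 593 and 315 FPKM in knockout and at 0.333 and 0.308 FPKM in wildtype tumours (log2 change 8.38, adjusted p = 0.0437). Defa3 was at 15.7 and 11.4 FPKM in knockout and at 0.181 and 0.167 FPKM in wildtype tumours (log2 change 3.62, SE 0.46, adjusted p = 0.0117).

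The rest of the family did not follow this pattern as a whole. The deposited table held 31 alpha-defensin genes, of which 20 were tested, and 15 of these did not pass. Defa24, the most abundant, was at 12158 and 9035 FPKM in knockout tumours and at 5848 and 8952 FPKM in wildtype tumours. Defa5 was at 910 and 483 FPKM in knockout and at 702 and 1172 FPKM in wildtype tumours, and Defa4 at 3248 and 1998 FPKM in knockout and at 4236 and 7963 FPKM in wildtype tumours. Defa24 and Defa4 thus had opposite signs, and Defa5 overlapped between the genotypes. Of the 15 genes that did not pass, 8 had both knockout tumours above both wildtype tumours, 2 had them below and 5 overlapped. Over all genes tested, 19.6% had both knockout tumours above and 21.0% had them below. Gm14851, named Defa38 by RefSeq, came closest to the test, at 418 and 386 FPKM in knockout and at 11.6 and 21.1 FPKM in wildtype tumours (log2 change 4.59, adjusted p = 0.0674). Gm15299 and Gm15308 were listed at 0 in both wildtype tumours, and at 2.85 and 0.823 FPKM and at 6.97 and 1.18 FPKM in the knockout tumours.

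**Figure D1:**
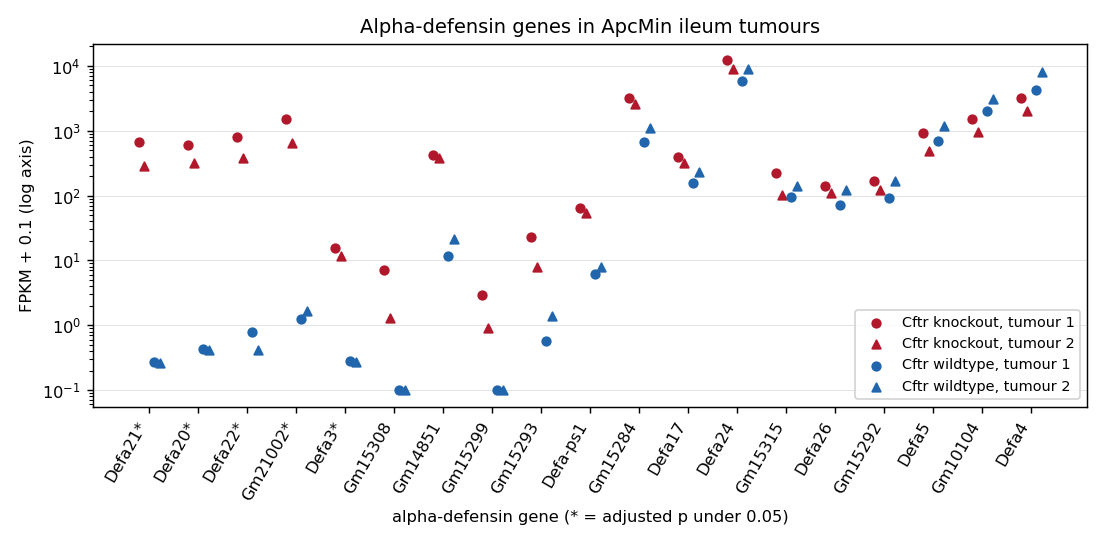
FPKM + 0.1 of 19 of the 20 tested alpha-defensin genes on a log axis, with 1 point per ileum tumour (Cftr knockout in red, wildtype in blue; circles tumour 1, triangles tumour 2) and genes ordered by the ratio of the genotypes' sums. The 5 genes that passed, marked with an asterisk, were at 0.16 to 1.54 FPKM in the wildtype tumours, while Defa24 was at 5848 FPKM or more in every tumour.

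The same 5 genes were also near 0 in the colon tumours of the wildtype animal, which were not part of the ileum test. Their sum was 3589 and 1633 FPKM in the knockout ileum tumours and 2.55 and 2.49 FPKM in the wildtype ileum tumours. In colon tumours of the same animals it was 108 and 25.2 FPKM in knockout and 0.274 and 0.517 FPKM in wildtype. Set against Defa24 in the same specimen, the sum was 29.5% and 18.1% in the knockout ileum tumours and 0.0436% and 0.0279% in the wildtype ileum tumours. In the 2 colon tumours of the wildtype animal the share was 0.0153% and 0.439%. In the 16 specimens outside that animal with at least 100 FPKM of Defa24, the knockout animal's 4 tumours included, it ran from 2.8% to 58.2%. Each of the wildtype animal's 4 tumours lay below all 16. The 5 genes were called by their difference between the ileum tumours, so the place of the ileum tumours follows from that choice. Among the wildtype animal's tumours, only the 2 colon tumours were outside it. The normal duodenum of Apc wildtype mice with wildtype Cftr, at 2.8% and 3.02%, was among the 16, and both of its specimens were merged in the fit. This share was chosen after the values were seen and has no test.

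Other Paneth cell products were less clear. Of the 16 Paneth cell markers 4 rose, against 0.078% of all genes tested. These were Defa3, Defa20, Defa21 and Defa22, already called above, and other alpha-defensins are also in the list. Its counts are therefore not independent of the family described above. In the list 10 changes were positive with a median of 0.55, against 52.0% positive and a median of 0.0079 over all genes tested. The median was 0.29 without wildtype tumour 1. Lyz1, the Paneth cell lysozyme, was at 3208 and 1319 FPKM in knockout and at 3162 and 3755 FPKM in wildtype tumours. Ang4, a ribonuclease that kills bacteria, was at 2296 and 2272 FPKM in knockout and at 218 and 271 FPKM in wildtype tumours. This apparent difference did not pass (log2 change 3.23, SE 1.31, limma adjusted p = 0.723). The SE comes from the spread pooled over all groups, not from these 4 tumours alone. Pnliprp2, a lipase, was at 192 and 156 FPKM in knockout and at 45.3 and 35.4 FPKM in wildtype tumours and did not pass (log2 change 2.08, adjusted p = 0.81). In bulk tumours fewer cells of a type and less RNA per cell cannot be told apart.

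The other 6 higher genes were smaller changes. Tfip11, a protein of spliceosome disassembly, was at 19.7 and 19.7 FPKM in knockout and at 13.5 and 11.4 FPKM in wildtype tumours, a log2 change of 0.63 (SE 0.086, limma adjusted p = 0.0123). Tfip11 (chromosome 5, 112326358 to 112338073, build GRCm38) was also higher in the knockout colon tumours of the same animals, with a log2 change of 0.67 (adjusted p = 0.0251). Over all 23 specimens it was at 17.8 to 22.2 FPKM in the 11 labelled knockout, 17.3 to 21.9 FPKM in the 4 labelled heterozygous and 11.4 to 13.8 FPKM in the 8 labelled wildtype. Tfip11 and its neighbour Srrd were the 2 of 14098 tested genes whose values in the 15 knockout and heterozygous specimens did not overlap those of the 8 wildtype specimens. The 23 specimens came from 10 animals, so specimens of 1 animal are not independent. The wildtype duodenum specimens, merged in the fit, are counted singly here. Srrd lies on the opposite strand and overlaps the end of Tfip11 (112337392 to 112343040), and since strand was not recorded for the counting, reads from the shared stretch cannot be assigned. This search over all specimens was made after the values of Tfip11 were seen. Hps4, which lies beside both on chromosome 5 and encodes a subunit of a complex that builds lysosome-related organelles, was at 10.6 and 11.1 FPKM in knockout and at 7.56 and 6.96 FPKM in wildtype tumours and did not pass (adjusted p = 0.0729).

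Aga and Neil3 are neighbours on chromosome 8 (53511727 to 53523421 and 53586867 to 53639065). Aga, a lysosomal enzyme that cleaves sugar chains from asparagine, was at 17.2 and 15.4 FPKM in knockout and at 7.82 and 9.89 FPKM in wildtype tumours, a log2 change of 0.83 (SE 0.12, limma adjusted p = 0.021). Neil3, a DNA glycosylase of base excision repair, was at 6.03 and 5.46 FPKM in knockout and at 1.72 and 2.6 FPKM in wildtype tumours (log2 change 1.1, adjusted p = 0.0434). The call of Neil3 held in 5 of 9 alternatives other than leaving out a tumour. In colon tumours of the same animals the changes were 0.72 for Aga and 1.02 for Neil3, with adjusted p of 0.0717 and 0.104. Outside the wildtype animal, Aga was at 13.8 to 22.2 FPKM in every specimen of the series, so that the wildtype animal's 4 tumours were the lowest.

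Kcnj16, an inwardly rectifying potassium channel subunit, was at 5.96 and 6.47 FPKM in knockout and at 0.473 and 0.612 FPKM in wildtype tumours (log2 change 2.23, SE 0.38, limma adjusted p = 0.0413). All specimens other than the ileum tumours held at most 2.29 FPKM of Kcnj16. Ppef1 and Comp were outside the rule for named genes because their level was under 5 FPKM and are named for completeness of the 22. Ppef1, a phosphatase with calcium-binding EF hands, was at 2.9 and 6 FPKM in knockout and at 0.116 and 0.29 FPKM in wildtype tumours. Comp, a cartilage matrix protein, was at 1.77 and 2.03 FPKM in knockout and at 0.66 and 0.517 FPKM in wildtype tumours.

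Higher genes nearest to the test did not pass. Slc28a1, a sodium-coupled nucleoside transporter, was at 21.4 and 32.4 FPKM in knockout and at 1.86 and 4.29 FPKM in wildtype tumours. 1810046K07Rik was at 7.97 and 9.17 FPKM in knockout and at 1.15 and 0.968 FPKM in wildtype tumours. Both had a limma adjusted p of 0.0966.

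Among the lower genes Slc15a2, a proton-coupled transporter of di- and tripeptides, differed most clearly. It was at 0.149 and 0.2 FPKM in the knockout tumours and at 3.7 and 4.1 FPKM in the wildtype tumours, a log2 change of -2.06 (SE 0.21, limma adjusted p = 0.0047). In colon tumours Slc15a2 was at 0.0504 and 0.176 FPKM in the knockout animal and at 3.45 and 6.31 FPKM in the wildtype animal (log2 change -2.36, adjusted p = 0.001), so it fell in both organs. In the colon tumours 9 of the 14098 genes passed by limma (0.0638%), 1 higher (0.00709%) and 8 lower (0.0567%). Its level is below 5 FPKM, so it lies outside the rule for named genes and was chosen after its values were seen.

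Akr1b7, an aldo-keto reductase that detoxifies aldehydes, fell in the ileum but did not pass in the colon. Its level was 12.4 and 14 FPKM in the knockout ileum tumours and 49 and 43.5 FPKM in the wildtype ileum tumours, a log2 change of -1.74 (SE 0.26, limma adjusted p = 0.021). Colon tumours held Akr1b7 at 3.67 and 4.11 FPKM in knockout and at 0.754 and 1.97 FPKM in wildtype (log2 change 1.1, adjusted p = 0.17). The test of the difference between organs gave -2.84 (SE 0.37, adjusted p = 0.0561), the smallest p of the 14098 genes, and did not pass.

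At 5 FPKM or more, 4 other genes fell. Procr, the endothelial protein C receptor, was at 5.13 and 5.29 FPKM in knockout and at 10.4 and 11.7 FPKM in wildtype tumours (log2 change -0.95, SE 0.12, limma adjusted p = 0.00905). Serping1, the inhibitor of the first complement component, was at 33.4 and 26.9 FPKM in knockout and at 48.5 and 49.2 FPKM in wildtype tumours (log2 change -0.69, adjusted p = 0.0401), a call that held in 6 of the 9 alternatives. Rcan2, a regulator of calcineurin, was at 2.59 and 2.47 FPKM in knockout and at 7.4 and 5.39 FPKM in wildtype tumours (log2 change -1.05, adjusted p = 0.0451), a call that held in 5 of the 9. Tspan4, a tetraspanin, overlaps Chid1 on the opposite strand. It was at 10.9 and 11.1 FPKM in knockout and at 16.7 and 18.4 FPKM in wildtype tumours (log2 change -0.63, limma adjusted p = 0.0238). Specimens other than the ileum tumours held at most 1.8 FPKM of Rcan2. For the others the wildtype ileum tumours were not the highest. The colon tumour of an Apc wildtype knockout mouse held 13.4 FPKM of Procr, 104.7 FPKM of Serping1 and 26.5 FPKM of Tspan4.

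Below 5 FPKM, and so outside the rule, another 5 genes fell. Fgf7, a mesenchymal growth factor for epithelium, was at 2.13 and 1.99 FPKM in knockout and at 4.8 and 4.5 FPKM in wildtype tumours (log2 change -0.89). Glp2r, the receptor of the gut growth hormone GLP-2, was at 1.55 and 1.56 FPKM in knockout and at 4.82 and 3.9 FPKM in wildtype tumours (log2 change -1.06). Fgf7 and Glp2r overlap genes on the opposite strand. Tacr1, the receptor of substance P, was at 0.685 and 0.68 FPKM in knockout and at 2.8 and 2.14 FPKM in wildtype tumours, and Dpep2, a membrane dipeptidase, at 0.92 and 0.572 FPKM in knockout and at 2.24 and 1.74 FPKM in wildtype tumours. Fmr1nb was listed at 0 in both knockout tumours and stood at 4.5 and 3.04 FPKM in the wildtype tumours. In the same libraries fibroblast markers had 2 of 10 positive changes, against 52.0% positive over all genes tested. Their summed level was 389 and 275 FPKM in knockout and 419 and 397 FPKM in wildtype tumours. The fibroblast median of -0.26 was 0.031 without knockout tumour 2 and -0.49 without knockout tumour 1. Endothelial markers had 0 of 10 positive, with sums of 91.3 and 89.5 FPKM in knockout and 109 and 116 FPKM in wildtype tumours. No marker of either list was at 0, and their part in these falls was not tested.

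Near the test in this direction, but not past it, were Tbx1, a transcription factor, at 3.68 and 2.38 FPKM in knockout and at 20.8 and 8.36 FPKM in wildtype tumours (adjusted p = 0.0613), and Ppp2r2b, a phosphatase subunit, at 3.19 and 2.55 FPKM in knockout and at 8.13 and 6.05 FPKM in wildtype tumours (adjusted p = 0.0729). Sgk1, a kinase that raises sodium uptake, was at 36.6 and 49.2 FPKM in knockout and at 185 and 159 FPKM in wildtype tumours (log2 change -1.99, adjusted p = 0.0976). Ide, the insulin-degrading enzyme, was at 19.2 and 17 FPKM in knockout and at 28.1 and 27 FPKM in wildtype tumours (log2 change -0.58, limma adjusted p = 0.0966). Specimens other than the ileum tumours held at most 89.7 FPKM of Sgk1, 3.71 FPKM of Tbx1 and 3.15 FPKM of Ppp2r2b. For these genes the wildtype ileum tumours were thus the highest of the series. Ide was not, as it reached 30.3 FPKM in a duodenal tumour of an Apc wildtype knockout mouse.

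**Figure D2:**
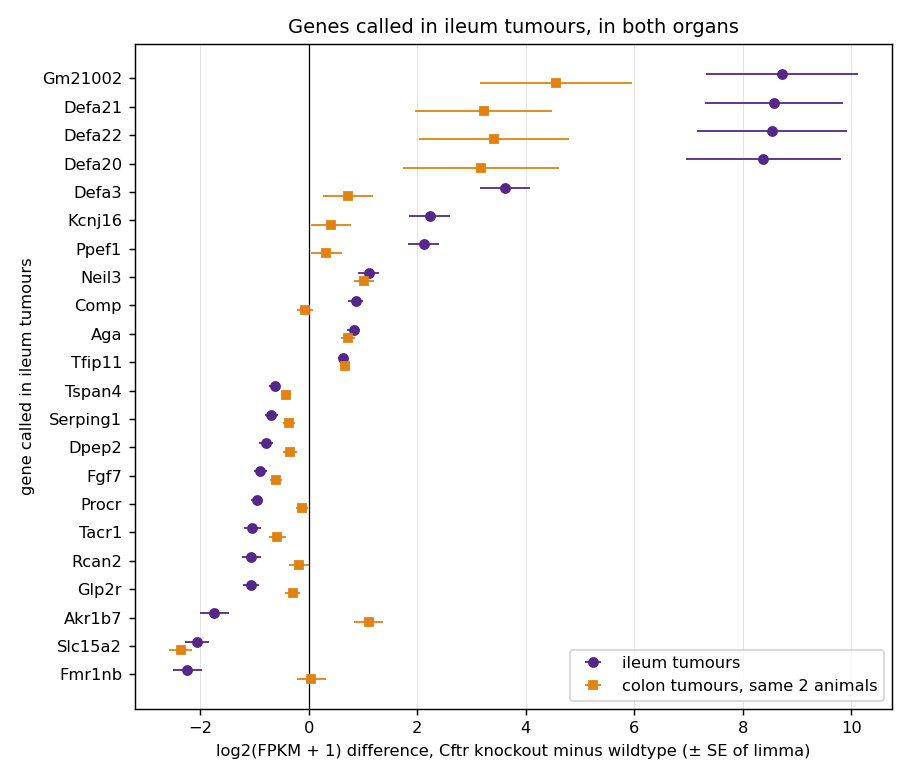
Difference in log2(FPKM + 1), knockout minus wildtype, of the 22 genes called in ileum tumours, in ileum tumours (purple circles) and in colon tumours of the same 2 animals (orange squares), with the SE of limma. Tfip11, Neil3, Aga and Slc15a2 lie close together in both organs, and Akr1b7 lies on opposite sides of 0, at -1.74 in ileum and 1.1 in colon.

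Whether ileum and colon tumours differed in the size of the change was tested on the same 2 animals. By limma 0 of 14098 genes passed (0.0%), while the unadjusted p of 690 was under 0.05 (4.89%). Besides Akr1b7, the genes of at least 5 FPKM nearest to the test were Defa3 (2.9, SE 0.66), the glycosidase Engase (1.0, SE 0.23) and Sgsm1 (0.61, SE 0.15) with positive differences, and Procr (-0.83, SE 0.16) and the haem synthesis enzyme Alas2 (-1.57, SE 0.32) with negative ones, all at an adjusted p of 0.679 or above. The result depended on 1 library: without wildtype colon tumour 2, 290 genes passed, 149 higher and 141 lower.

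The mean of the ileum and colon changes gave 78 genes (0.553%), 21 higher (0.149%) and 57 lower (0.404%) in the knockout animal. The rises that the naming rule takes, where all 4 knockout tumours lay above all 4 wildtype tumours, were the same 5 alpha-defensins, with mean log2 changes of 6.64 for Gm21002, 5.98 for Defa22, 5.9 for Defa21, 5.78 for Defa20 and 2.17 for Defa3. These genes share their ileum tumours with the first test and are not independent of it. Gm14851, which overlapped between the animals across organs, also passed with a mean change of 4.11 (adjusted p = 0.0133). The largest fall was that of Slc15a2, at -2.21, and the falls that the rule takes were in genes that did not pass in ileum alone. Igj, the joining chain of secreted antibodies and a plasma cell gene, was at 122 and 162 FPKM in knockout ileum tumours. It was at 252 and 432 FPKM in wildtype ileum tumours, with a mean change of -1.54 (SE 0.26, limma adjusted p = 0.022). The 14 tested B and plasma cell markers, Igj among them, changed less. They had 4 positive changes in each organ, with medians of -0.057 in ileum and -0.21 in colon. Cxcl14, a chemokine, was at 13.8 and 11.2 FPKM in knockout and at 26.9 and 22.6 FPKM in wildtype ileum tumours (mean change -1.23, adjusted p = 0.0103). The others were Gm5483 (-1.68), Gm7120 (-1.51) and R3hdml (-1.09). The count ranged from 10 without knockout ileum tumour 2 to 1227 without wildtype colon tumour 2. It was 16 without wildtype ileum tumour 1, 28 without wildtype ileum tumour 2, 43 without wildtype colon tumour 1, 19 without knockout colon tumour 1 and 119 without knockout colon tumour 2.

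Tuft cell markers were higher together in the knockout tumours although none passed over all genes. Of 11 tested markers 10 were positive, with a median log2 change of 1.48, against 52.0% positive and a median of 0.0079 over all genes. Both knockout tumours lay above both wildtype tumours for 10 of the 11, against 19.6% of all genes. Trpm5, the cation channel of tuft cell signalling, was at 6.07 and 6.79 FPKM in knockout and at 1.09 and 1.1 FPKM in wildtype tumours (log2 change 1.83, SE 0.40, limma adjusted p = 0.154). Siglec5, the surface lectin also called Siglec-F, was at 4.98 and 4.51 FPKM in knockout and at 0.933 and 0.831 FPKM in wildtype tumours, and the adaptor Sh2d7 at 5.2 and 5.62 FPKM in knockout and at 1.12 and 0.791 FPKM in wildtype tumours. Pou2f3, the transcription factor that tuft cells need, was at 1.75 and 2.4 FPKM in knockout and at 0.405 and 0.541 FPKM in wildtype tumours. The exception was Ptgs1, a prostaglandin synthase that other cells also make, at 11.6 and 9.88 FPKM in knockout and at 16.8 and 13.4 FPKM in wildtype tumours. In colon tumours of the same animals 7 of the 11 were positive, with a median of 0.19, against 50.5% positive over all genes. Outside the ileum, Trpm5 was at 4.47 to 7.24 FPKM in normal duodenum, so the knockout tumours lay within that range and the wildtype tumours below it. Without the heterozygous duodenal tumours in the shared spread, an alternative added after the data were seen, 3 tuft cell markers rose, and 50 of the 14098 genes passed in all (0.355%).

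Interferon-stimulated genes were higher in most members, in both organs. Of 25 members 22 were positive, with a median of 0.33, and none passed. Oas1a, which makes the messenger that activates RNase L, was at 13.7 and 15.2 FPKM in knockout and at 7.9 and 8.08 FPKM in wildtype tumours (log2 change 0.78, limma adjusted p = 0.297). Isg15, a ubiquitin-like modifier, was at 13.7 and 17.3 FPKM in knockout and at 5.02 and 7.04 FPKM in wildtype tumours (log2 change 1.24, adjusted p = 0.465). Ifit3 was at 4.46 and 4.72 FPKM in knockout and at 2.74 and 2.13 FPKM in wildtype tumours. In colon tumours 21 of the 25 were positive, with a median of 0.39.

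Among MHC genes, the class II members were lower in the knockout tumours and none passed. Of 18 MHC genes 6 were positive, and both knockout tumours lay below both wildtype tumours for 8, against 21.0% of all genes. The median of the whole list was -0.12, which was -0.022 without knockout tumour 1 and -0.25 without knockout tumour 2. The 4 with the smallest p belonged to class II presentation. H2-Aa was at 71.2 and 73.2 FPKM in knockout and at 300 and 242 FPKM in wildtype tumours (log2 change -1.89, SE 0.62, limma adjusted p = 0.463). Cd74, the chaperone of class II molecules, was at 188 and 193 FPKM in knockout and at 701 and 618 FPKM in wildtype tumours. H2-Eb1 and H2-Ab1 differed by -1.38 and -1.6, and none passed. Colon tumour changes were 0.018 for H2-Aa (SE 0.62), 0.022 for H2-Eb1, 0.028 for H2-Ab1 and -0.31 for Cd74, and the difference between organs did not pass for any of the 4.

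Macrophage and monocyte markers had 1 of 15 positive changes and a median of -0.46. For 14 of them both knockout tumours lay below both wildtype tumours, against 21.0% of all genes. Their summed level was 209 and 201 FPKM in knockout and 300.5 and 287 FPKM in wildtype tumours. Mrc1, the mannose receptor of tissue macrophages, was at 2.95 and 2.36 FPKM in knockout and at 6.33 and 5.34 FPKM in wildtype tumours (log2 change -0.91, SE 0.18, limma adjusted p = 0.0966). The complement gene C1qa was at 23.2 and 22.4 FPKM in knockout and at 37.8 and 37 FPKM in wildtype tumours, and C1qb and C1qc differed by -0.64 and -0.60. None of the 15 passed. In colon tumours 1 of the 15 was also positive, with a median of -0.33. The part of macrophages in the class II values was not tested.

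**Figure D3:**
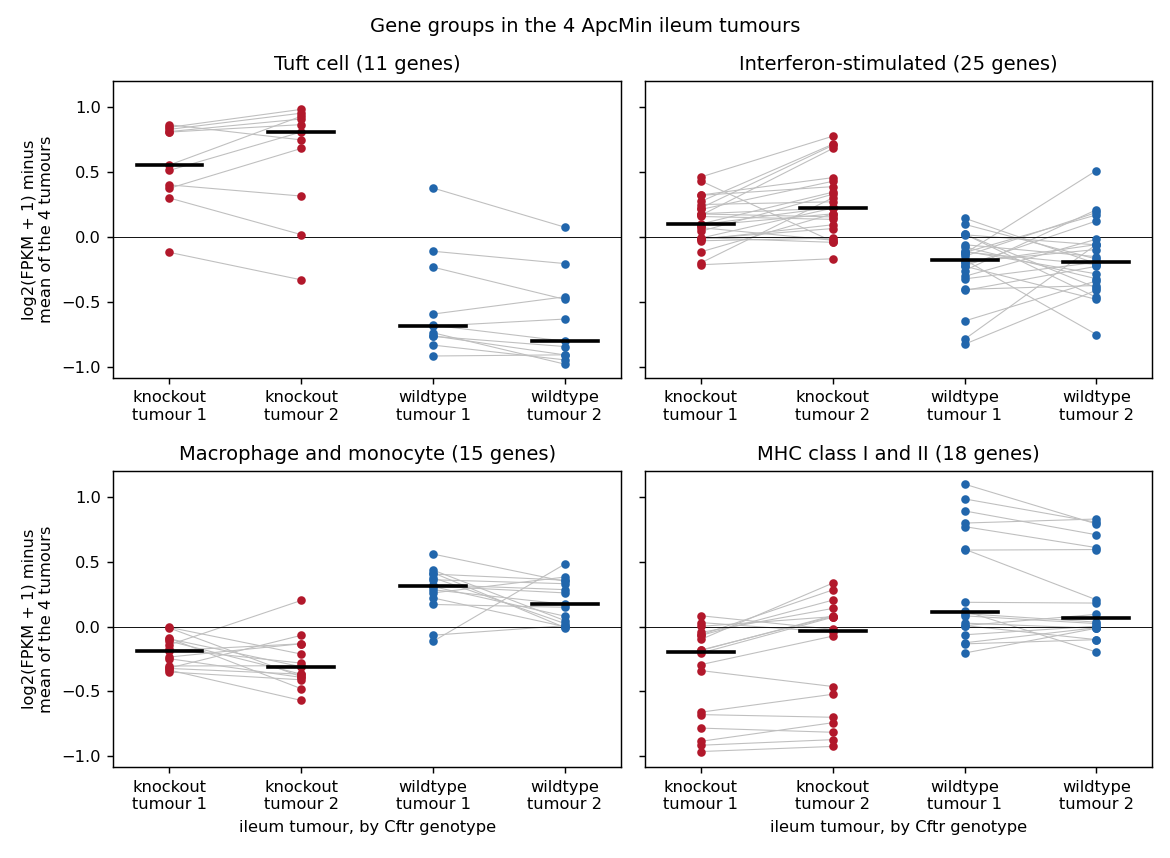
Log2(FPKM + 1) of each tested gene minus its mean over the 4 ileum tumours, for tuft cell (11), interferon-stimulated (25), macrophage and monocyte (15) and MHC class I and II (18) genes, with knockout tumours in red and wildtype tumours in blue. Black bars are medians over genes, and grey lines join the tumours of one genotype. Of the 11 tuft cell genes 10 were higher in both knockout tumours, against 19.6% of all genes. The MHC genes fall into a group that differed and a group near 0.

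Genes of bile acid handling were lower in the knockout tumours, with wide spread. Fabp6, the ileal bile acid binding protein, was at 980 and 53.8 FPKM in knockout and at 10027 and 7104 FPKM in wildtype tumours (log2 change -5.19, SE 2.76, limma adjusted p = 0.975). The knockout tumours differed from each other more than the wildtype tumours did, and knockout tumour 2 lay among the colon specimens, which reached 82.3 FPKM. Of 10 bile acid genes 2 were positive, with a median of -1.23. That median was -0.79 without knockout tumour 2. Slc51b, a subunit of the basolateral bile acid exporter, was at 93.5 and 66.8 FPKM in knockout and at 275 and 201 FPKM in wildtype tumours, and Nr1h4, the bile acid receptor FXR, at 18.3 and 15.6 FPKM in knockout and at 38.4 and 33.2 FPKM in wildtype tumours. Abcb1a, a drug efflux pump, was at 62.1 and 53 FPKM in knockout and at 167 and 118 FPKM in wildtype tumours. The 8 ileal markers, most of which are bile acid genes too, had 1 positive change and a median of -1.52, or -0.88 without knockout tumour 2. Cubn, the receptor for vitamin B12 with intrinsic factor, was at 6.51 and 2.1 FPKM in knockout and at 19.4 and 12 FPKM in wildtype tumours (adjusted p = 0.569). The place of each tumour along the ileum is not in the labels, and its part in these values was not tested.

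**Figure D4:**
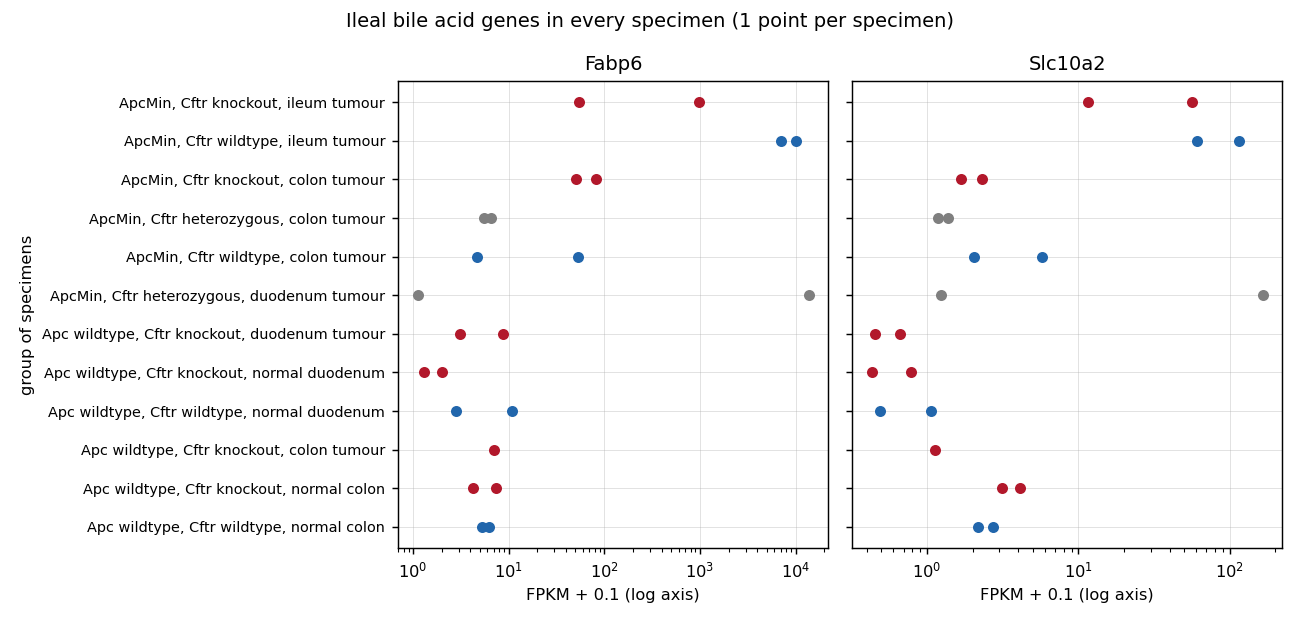
FPKM + 0.1 of Fabp6 and Slc10a2 on log axes in every specimen, 1 point each, by group (Cftr knockout red, wildtype blue, heterozygous grey). Fabp6 was at 980 and 53.8 FPKM in the knockout ileum tumours and at 10027 and 7104 FPKM in the wildtype ileum tumours, and 1 heterozygous tumour labelled duodenum held 13742 FPKM.

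Detoxification enzymes were lower in most members. Of 25 genes 7 were positive, with a median of -0.58, and for 17 both knockout tumours lay below both wildtype tumours, against 21.0% of all genes. The median was -0.34 without knockout tumour 1. Cyp3a11, a cytochrome P450 of drug and bile acid metabolism, was at 16.1 and 21.8 FPKM in knockout and at 103 and 264 FPKM in wildtype tumours (log2 change -3.07, SE 0.73, limma adjusted p = 0.194). Cyp3a25, a related enzyme whose reads may be shared, was at 13.7 and 26.2 FPKM in knockout and at 47.8 and 69.6 FPKM in wildtype tumours. Ces2a, a carboxylesterase, was at 33.1 and 37.3 FPKM in knockout and at 166 and 194 FPKM in wildtype tumours, and the retinal dehydrogenase Aldh1a1 at 21.5 and 19.1 FPKM in knockout and at 71.8 and 85.9 FPKM in wildtype tumours. None of the 25 passed. In colon tumours 20 of the 25 were positive, with a median of 0.27. Cholesterol and fatty acid synthesis genes had 5 of 27 positive and a median of -0.23. None of the 27 passed.

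Ion transport genes were slightly higher in most members. Of 29 genes of chloride, bicarbonate and sodium transport 25 were positive, with a median of 0.32 (0.13 without knockout tumour 2), and none passed. Kcnq1, a basolateral potassium channel that drives chloride secretion, was at 55.6 and 48.5 FPKM in knockout and at 39.7 and 41.5 FPKM in wildtype tumours. Scnn1a, a subunit of the epithelial sodium channel, was at 7.28 and 8.9 FPKM in knockout and at 5.06 and 4.2 FPKM in wildtype tumours. Car4, a membrane carbonic anhydrase, was at 182 and 213 FPKM in knockout and at 36.5 and 55.1 FPKM in wildtype tumours (log2 change 2.11, SE 1.17, limma adjusted p = 0.988). Slc26a9, an anion transporter, went the other way, at 2.08 and 1.44 FPKM in knockout and at 4.17 and 3.25 FPKM in wildtype tumours.

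Wnt targets and stem cell genes, which the series description names as themes drawn from these samples, showed no common direction in ileum, and counts for them are not independent evidence. Among 24 Wnt targets 12 changes were positive, and their median was 0.018. Leaving out 1 tumour gave medians of 0.26 without wildtype tumour 1, -0.22 without wildtype tumour 2, -0.21 without knockout tumour 1 and 0.19 without knockout tumour 2. Myc was at 34.3 and 33 FPKM in knockout and at 24 and 25.5 FPKM in wildtype tumours, and the secreted Wnt inhibitor Wif1 at 65.6 and 55.9 FPKM in knockout and at 167 and 93.5 FPKM in wildtype tumours. In colon tumours of the same animals 2 of the 24 were positive, with a median of -0.71. Of 17 crypt stem cell genes 12 were positive, with a median of 0.19, which was -0.00322 without knockout tumour 1, 0.37 without knockout tumour 2, 0.31 without wildtype tumour 1 and 0.05 without wildtype tumour 2. Prom1, the stem cell surface protein CD133, was at 184 and 164 FPKM in knockout and at 104 and 103 FPKM in wildtype tumours, and the crypt factor Sox9 at 38.6 and 27.2 FPKM in knockout and at 24.1 and 19.2 FPKM in wildtype tumours. Proliferation genes had 19 of 20 positive, with a small median of 0.16 (0.084 without wildtype tumour 1). The proliferation marker Mki67 was at 20.2 and 18.8 FPKM in knockout and at 16 and 16.2 FPKM in wildtype tumours. In colon tumours the signs were mostly opposite, against 50.5% positive over all genes. There 1 of the 20 proliferation genes was positive (median -0.16) and 1 of the 17 crypt stem cell genes (median -0.23). None of the genes of these lists passed in the ileum test.

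Regulators of the secretory lineages were slightly higher. Among 19 members 17 had positive changes, and the median was 0.31 (0.15 when wildtype tumour 2 was left out). Foxa3 was at 30.6 and 31.4 FPKM in knockout and at 18.5 and 20 FPKM in wildtype tumours (log2 change 0.66, SE 0.17, limma adjusted p = 0.24). Atoh1, which commits progenitors to secretory fates, was at 15.4 and 15.8 FPKM in knockout and at 10.3 and 8.82 FPKM in wildtype tumours, and Gfi1, which acts after it, at 3.49 and 2.82 FPKM in knockout and at 2.13 and 1.81 FPKM in wildtype tumours. Goblet cell markers had 10 of 12 positive, with a median of 0.17, which was 0.35 without knockout tumour 1 and 0.33 without wildtype tumour 2. None of either list passed.

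Inflammatory genes, also a theme of the series description, were lower in most members, and defence genes had mixed signs. Of 25 cytokines and chemokines 7 were positive, with a median of -0.26, and none passed. Ptgs2, the inducible prostaglandin synthase, was at 6.26 and 4.4 FPKM in knockout and at 11.9 and 9.41 FPKM in wildtype tumours, and Nos2, the inducible nitric oxide synthase, at 6.12 and 7.02 FPKM in knockout and at 42 and 24 FPKM in wildtype tumours. Of 20 Reg and antimicrobial genes 12 were positive, with a median of 0.32, or 0.19 without knockout tumour 2. Duox2, the epithelial oxidase that makes hydrogen peroxide, was at 129 and 148 FPKM in knockout and at 60.1 and 49.8 FPKM in wildtype tumours, and its maturation factor Duoxa2 at 306 and 359 FPKM in knockout and at 108 and 130 FPKM in wildtype tumours. Pigr, which carries antibodies through the epithelium, was at 489 and 588 FPKM in knockout and at 396 and 362 FPKM in wildtype tumours.

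Matrix genes and metalloproteinases had 1 of 22 positive and a median of -0.28, which was -0.092 without knockout tumour 2 and -0.47 without knockout tumour 1. Plau, the urokinase that activates plasmin, was at 9.29 and 8.42 FPKM in knockout and at 27.6 and 20.2 FPKM in wildtype tumours (log2 change -1.32, SE 0.32, limma adjusted p = 0.22). Mmp9, a gelatinase, was at 9.26 and 7.08 FPKM in knockout and at 24.9 and 15.4 FPKM in wildtype tumours, and Mmp2 at 22.1 and 16.1 FPKM in knockout and at 29.2 and 27.6 FPKM in wildtype tumours. None passed.

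Mast cell markers had 8 of 9 positive, with a median of 0.71, which rested on 1 tumour. The median was -0.094 without knockout tumour 2, 1.54 without knockout tumour 1 and 0.4 without wildtype tumour 1. Mcpt1, a mucosal mast cell protease, was at 143 and 467 FPKM in knockout and at 102 and 138 FPKM in wildtype tumours, and Mcpt2 at 116 and 375 FPKM in knockout and at 69.1 and 102 FPKM in wildtype tumours. Erythroid genes, which mark blood in a tumour, had 0 of 7 positive and summed to 203 and 170 FPKM in knockout and 304 and 432 FPKM in wildtype tumours. Alas2 was at 2.92 and 2.55 FPKM in knockout and at 4.58 and 5.89 FPKM in wildtype tumours. Hba-a1, a haemoglobin gene with a near-identical copy, was at 0.398 and 52 FPKM in knockout and at 88.5 and 87.3 FPKM in wildtype tumours.

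**Figure D5:**
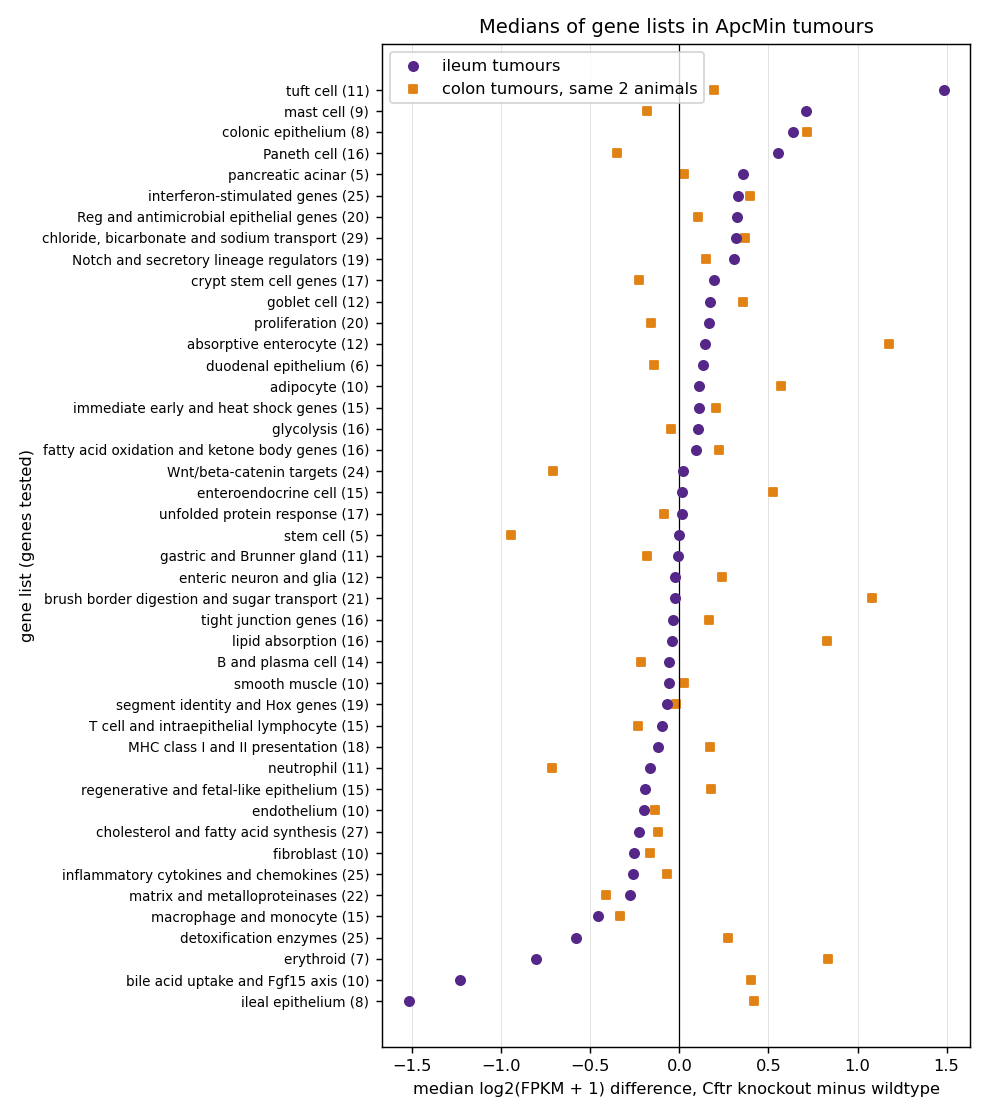
Median difference in log2(FPKM + 1), knockout minus wildtype, for 44 gene lists in ileum tumours (purple circles) and in colon tumours of the same 2 animals (orange squares), with the number of genes tested in brackets. Tuft cell genes lie highest in ileum at 1.48 and ileal epithelium lowest at -1.52, and the lists have other medians in colon.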

How the data were processed

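The authors deposited FPKM values of 23356 genes in 68 columns, without counts. FastQC, TopHat2 2.0.13, Cuffnorm and mm10 stand in the submitters' processing notes. Relative depth was estimated from steps between low FPKM values. Of the gene names, 25 had the form of dates and were kept as deposited, and 2 were repeated. Each specimen's columns were averaged as log2(FPKM + 1). A gene entered the test with 1 FPKM in 2 or more specimens. Models were fitted with limma 3.58.1 under R 4.3.3 (lmFit, then eBayes with trend = TRUE) and p-values adjusted by Benjamini-Hochberg. The fit held 22 samples and left 10 residual degrees of freedom, because both wildtype duodenum specimens were merged: their spread was 0.978 times the lane noise in run 1 and 1.036 times in run 2.

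Members, the 44 lists and all rules were chosen with earlier results of these data known. Named genes were Cftr and Apc, up to 15 rises and 15 falls that passed without overlap at a mean of at least 5 FPKM in the higher group, up to 5 nearest to the test after them, up to 5 each way for the organ comparisons, and up to 4 members of each list with the smallest p. Outside this rule, and named after their values were seen, were the called genes below 5 FPKM, Xist, Srrd, the alpha-defensins that did not pass, Lyz1, Pnliprp2, Pou2f3, Ptgs1, Duox2, Duoxa2, Slc10a2 and Fgf15. Some genes that this rule takes are not reported here. Lists have no test. Positions and sequences came from GENCODE M21 (GRCm38, which is mm10), and names were matched through RefSeq. Alternatives were a pseudocount of 0.1, other filters, quantile normalisation, the compared groups alone, run 2 alone, a replicate block, each tumour dropped and, added once the data were seen, the heterozygous duodenal tumours left out and the wildtype duodenum as 2 specimens.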

Additional observations from a re-analysis of the deposited data

Results flagged for a closer look

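Heterozygous ApcMin duodenal tumour 2, which is in neither group of the ileum comparison but shares in its estimate of spread and in the ranges over all specimens, held Fabp6 at 13742 FPKM, while the other duodenal specimens held at most 10.7 FPKM. Its label says duodenum, and Fabp6 is an ileal gene. Slc10a2 was at 165 FPKM and Fgf15 at 63.6 FPKM in the same tumour, above every ileum tumour. What these values come from was not tested.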

How the results depend on the processing

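The ileum count of 22 genes was 13 with a pseudocount of 0.1, 54 with no filter on low values, 120 with the compared groups alone, 35 in run 2 columns alone and 50 without the heterozygous duodenal tumours. It ranged from 2 to 7 when 1 tumour was left out. It stayed within 1.5 times under the other alternatives, among them the replicate block with 19. Of the 22 genes 8 passed under all 9 alternatives other than leaving out a tumour, while Neil3 and Rcan2 passed in 5 and Serping1 in 6. The difference between organs, with 0 genes, gave 1 with no filter, 1 in run 2 alone, 1 with the wildtype duodenum as 2 specimens and 0 to 290 when 1 tumour was left out. The mean of both organs, with 78 genes, gave 27 with the compared groups alone, 51 in run 2 alone, 150 with the replicate block, 147 with the wildtype duodenum as 2 specimens and 10 to 1227 when 1 tumour was left out. The cause was not tested, except that fewer samples or more genes enter where a tumour or the filter was dropped. Of 126 single genes 6 changed sign when 1 tumour was left out, none of which had passed. Their log2 changes ranged from -0.21 to 0.094 for Apc, -0.094 to 1.68 for Mcpt4, -0.63 to 0.21 for Tnfrsf17, -0.91 to 0.00495 for Defa5, -0.27 to 0.59 for Gm15292 and -0.19 to 0.95 for Gm15315. Tumours with the same number deviated together with a correlation of 0.21 in ileum, but with only 2 numbers the block is no pairing. Depth limits mainly genes of low FPKM. Each genotype is 1 animal, which no alternative here changes.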
